A study of Mus musculus with 6 samples.

Results

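The thrombospondin family comprises 5 genes, Thbs1, Thbs2, Thbs3, Thbs4 and Comp, which were taken by symbol from a table of 49548 genes measured in cancer-associated fibroblasts (CAFs) of mouse colon tumors. All 5 were found, and all 5 had at least 1 normalized count over the libraries, whereas 4 had a mean of at least 10. The 6 libraries came from C57/BL6 mice of the genotype Col6a1-cre, Rosa26-mTmG. All mice received azoxymethane (AOM), a colon carcinogen, and repeated cycles of dextran sodium sulfate (DSS) in the drinking water, which together produce colitis-associated adenomas. The adenomas were digested, and lineage negative cells (CD45-, EpCAM-, CD31- and Ter119-) were sorted into 3 samples of GFP+ cells (Col6a1+ CAFs) and 3 samples of Tomato+ cells (Col6a1- CAFs). In the mTmG reporter every cell makes membrane Tomato until Cre removes it and turns on membrane GFP, so GFP marks cells, and descendants of cells, in which the Col6a1 promoter drove Cre. According to the study's methods, this Cre line marks PDGFRa-high fibroblasts and perivascular cells of the intestine, each sample pooled tumors of several mice, and the mice were young adults of both sexes. Neither group is a pure cell type, and no tumor-free colon was analysed here.

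Thrombospondins are secreted calcium-binding glycoproteins of the extracellular matrix, called matricellular because they act on cells and on other matrix proteins more than they build fibers. Thbs1 and Thbs2 form trimers and carry type 1 repeats, which bind CD36 on endothelial cells and restrain angiogenesis, and Thbs1 also activates latent TGF-beta. Thbs3, Thbs4 and Comp form pentamers without type 1 repeats. They are best known from muscle, tendon, cartilage and bone, where they bind collagens and integrins and, for Thbs4, assist protein folding in the endoplasmic reticulum. In tumors the stroma is a main source of the trimeric members.

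Col6a1, the gene whose promoter drives the Cre, had 861, 1287 and 1941 normalized counts in the Col6a1+ libraries and 182, 321 and 102 in the Col6a1- libraries, in the direction of the labels. Normalized counts are read counts that the authors scaled between libraries, and a gene was called where limma gave a Benjamini-Hochberg adjusted p under 0.05 over the 26402 genes tested. Markers of mural cells, the contractile cells of vessel walls, were called higher in Col6a1+ CAFs in 10 of 10 cases, and their summed level was 41829 to 91448 normalized counts against 1150 to 2142. Pan-fibroblast markers were called higher in 4 of 8 cases, with sums of 41433 to 46780 against 8828 to 16090. Epithelial markers were called lower in 6 of 8 cases, with sums of 5474 to 5873 against 19062 to 30726, although the sort removed EpCAM+ cells. Beside these marker counts, 2.66% of all genes tested were called higher and 1.96% lower in Col6a1+ CAFs. The Col6a1+ CAF replicate 1 library had the fewest genes with at least 1 normalized count (14530, against 18770 to 20511 in the other libraries).

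The comparison of the sorted populations asks which family members differ between Col6a1+ and Col6a1- CAFs of these adenomas. The labels do not say whether libraries of the same replicate number came from the same pool of tumors. A single member, Thbs3, was called higher in Col6a1+ CAFs, and none was called lower. At an unadjusted p under 0.05 it was also the only member. It was 5.44-fold higher by the ratio of the means, whereas Thbs1 and Thbs2 had similar means in both populations. Thbs4 was lower in Col6a1+ CAFs in every pair of libraries with the same replicate number but did not pass the test. Comp was close to undetected. Over all 26402 genes tested, 2.66% were called higher and 1.96% were called lower in Col6a1+ CAFs (limma). The 3 Col6a1+ libraries lay above the 3 Col6a1- libraries for 7.91% of all genes tested, and below them for 11.6%. Among the 13515 genes averaging at least 10, which hold 4 of the members, the shares called were 5.15% and 3.67%, and the shares without overlap 14.2% and 17.6%. Among the members, Thbs3 alone lay above and 0 of 5 lay below. Since these are bulk samples of sorted cells, fewer cells that make a transcript and less transcript per cell cannot be told apart.

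**Figure D1:**
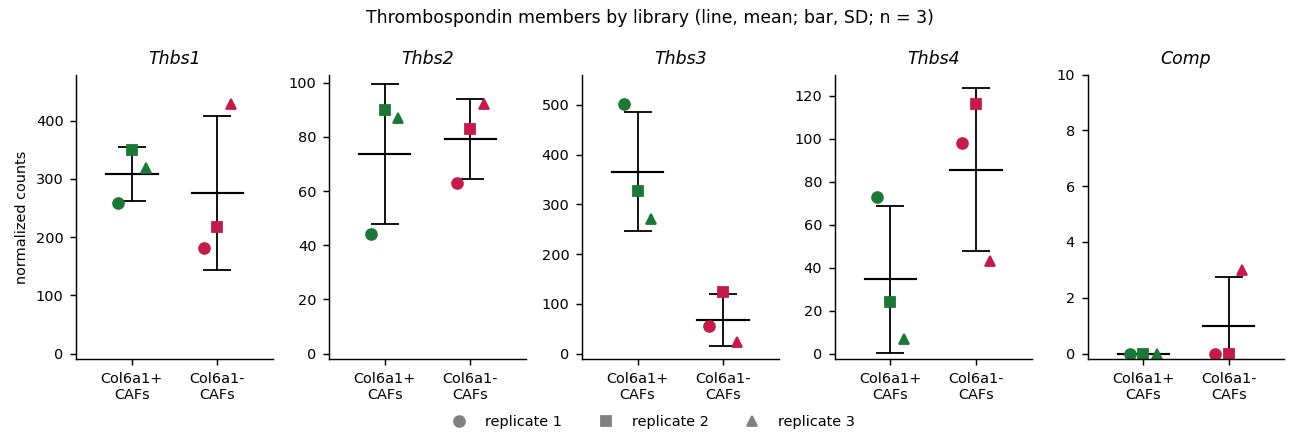
Normalized counts (y axis, linear, each panel with its own scale from 0) of the 5 thrombospondin genes in each library of Col6a1+ CAFs (green) and Col6a1- CAFs (red). Marker shapes give the replicate number, lines the mean of 3 libraries and bars the SD. The lowest Col6a1+ library of Thbs3 (270) lies above its highest Col6a1- library (124), and the groups overlap in the other 4 panels.

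Thbs1 (ENSMUSG00000040152, mm10 chr2:118111876-118127133, plus strand) encodes the trimeric member that platelets release and that activates latent TGF-beta. It had 258, 349 and 319 normalized counts in the Col6a1+ libraries and 182, 218 and 428 in the Col6a1- libraries. The highest and the lowest of the 6 values both belonged to Col6a1- CAFs, so the groups overlapped. The means were 309 ± 46.4 and 276 ± 133 (SD, n = 3 each). The log2 fold change of Col6a1+ over Col6a1- CAFs was 0.25 (SE 0.37, 95% interval -0.57 to 1.07), with an adjusted p of 0.714 (limma, Benjamini-Hochberg).

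Single platelet and megakaryocyte markers were highest in different libraries. Pf4, which encodes platelet factor 4, had 2222 normalized counts in Col6a1- CAF replicate 3, where Thbs1 was highest, and 5 to 82 in the other libraries. Ppbp, another platelet chemokine gene, had 333 in Col6a1- CAF replicate 1, where Thbs1 was lowest, and 0 to 15 in the others. The platelet receptor genes Itga2b and Gp1bb had 11 and 4 in replicate 3 of Col6a1- CAFs, below their highest values of 39 and 68, both in Col6a1+ CAF replicate 1. Of the 10 platelet and megakaryocyte markers, 4 were at 0 in every library and none was called. The list summed to 204, 45 and 72 in Col6a1+ and to 380, 36 and 2249 in Col6a1- CAFs. Its highest sum, mostly Pf4, lay in Col6a1- CAF replicate 3, as did the highest Thbs1 value. Its next highest lay in Col6a1- CAF replicate 1, where Thbs1 was lowest. Whether platelet RNA took part in the Thbs1 value was not tested. Without Col6a1- CAF replicate 3 the log2 fold change of Thbs1 was 0.62, with an adjusted p of 0.327 (limma).

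Thbs1 is also known as an immediate early gene that serum and cell stress induce. Of the 14 immediate early and dissociation genes, 3 were called higher in Col6a1+ CAFs and none lower. They were the orphan nuclear receptor gene Nr4a1 (log2 fold change 1.91) and the heat shock genes Hspa1a (1.61) and Hspa1b (1.85). The summed level of the list was 56191 to 72111 normalized counts in Col6a1+ CAFs and 34000 to 38925 in Col6a1- CAFs, without overlap, while Thbs1 itself overlapped. Over all genes tested, 2.66% were called higher and 1.96% lower. Of the 14, 9 lay wholly above and 1 wholly below between the groups, where 7.91% and 11.6% of all genes tested did. The part of cell stress in the Thbs1 values was not tested.

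Thbs2 (ENSMUSG00000023885, mm10 chr17:14665500-14694262, minus strand) encodes the other trimeric member, a regulator of collagen fibril shape and of matrix metalloproteinase uptake. Its normalized counts were 44, 90 and 87 in Col6a1+ CAFs and 63, 83 and 92 in Col6a1- CAFs. Apart from the low value of Col6a1+ CAF replicate 1, the libraries of both groups covered the same range. The log2 fold change was -0.16 (SE 0.44, 95% interval -1.13 to 0.82), with an adjusted p of 0.863 (limma). The interval reaches beyond a doubling in favor of Col6a1- CAFs, so 3 libraries a group set only wide limits. Its sign turned without Col6a1+ CAF replicate 1 (0.17).

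Thbs3 (ENSMUSG00000028047, mm10 chr3:89215180-89226837, plus strand) encodes a pentameric member studied mainly in skeletal growth and in heart muscle. It had 501, 327 and 270 normalized counts in Col6a1+ CAFs and 55, 124 and 23 in Col6a1- CAFs. All 3 Col6a1+ libraries lay above all 3 Col6a1- libraries. The means were 366 ± 120 and 67.3 ± 51.6 (SD, n = 3 each), and the log2 fold change was 2.68 (SE 0.55, 95% interval 1.46 to 3.91), with an adjusted p of 0.0222 (limma, Benjamini-Hochberg). Within pairs of the same replicate number the log2 difference was 3.16, 1.39 and 3.50, higher in 3 of 3 pairs.

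The Thbs3 call depended on the fit, while its direction did not. Blocking on the replicate number gave an adjusted p of 0.104, and the same block fitted to genes averaging at least 10 gave 0.00826 (limma). The latter fit called 7.26% of its 13515 genes higher and 6.44% lower. Each of the 6 libraries was needed for the call, since leaving out any of them gave an adjusted p of 0.0980 to 0.249 with a log2 fold change of 2.08 to 3.27. In those fits the genes called over the whole table fell from 1220 to between 0 and 264.

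**Figure D2:**
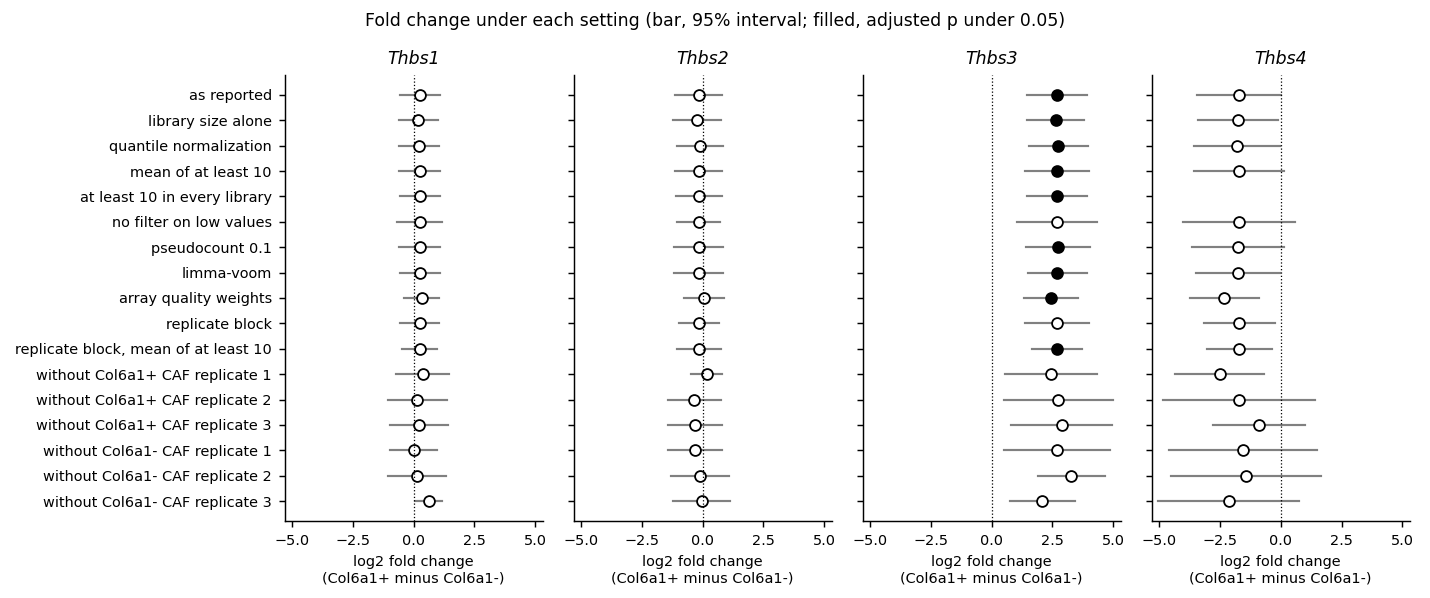
Log2 fold change of Col6a1+ over Col6a1- CAFs (x axis) with its 95% interval for Thbs1 to Thbs4 under the setting reported and each alternative (rows), filled where the adjusted p is under 0.05. Thbs3 stays to the right of 0 in every row, from 2.08 to 3.27, and Thbs4 to the left, while Thbs1 and Thbs2 lie close to 0.

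Thbs3 lies wholly within the span of Mtx1, a mitochondrial import gene on the opposite strand (mm10 chr3:89209081-89227088). Whether the authors counted reads by strand is not given in the sources used here, so the reads of both genes cannot be told apart where they overlap. Mtx1 had 86, 87 and 67 normalized counts in Col6a1+ CAFs and 89, 57 and 44 in Col6a1- CAFs. Its log2 fold change was 0.38 (SE 0.43, adjusted p = 0.642, limma). The groups overlapped for Mtx1 and did not for Thbs3. In the GENCODE M21 annotation (GRCm38), 2 of 18 Mtx1 transcripts reach into Thbs3, of which 1 is protein-coding. Exons of the genes share 318 bases. Of the 312 bases of the last Thbs3 exon, the exon nearest to the 3′ end that these libraries read, 0 are shared. The 3′ ends of the genes lie 17756 bases apart. The authors' values per base imply a length of 8996 bases for Thbs3, against 4823 exon bases in this annotation. The part of Mtx1 reads in the Thbs3 counts was not tested.

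Markers of contractile cells and of some fibroblasts were higher in the Col6a1+ libraries, as Thbs3 was. Besides the mural list, 6 of 8 smooth muscle markers were called higher in Col6a1+ CAFs. Their sums were 12621 to 25196 against 504 to 2483 normalized counts. Pan-fibroblast markers were called higher in 4 of 8 cases and PDGFRA-high fibroblast markers in 5 of 8. Of 7 trophocyte markers, of CD81+ fibroblasts, 2 were called lower and none higher. Over all genes tested, 2.66% were called higher and 1.96% lower. The part of these cell types in the Thbs3 difference was not tested. The genes whose pattern over the 6 libraries was most like that of Thbs3, by the root-mean-square difference of centered log2 values over the 13515 genes averaging at least 10, were Myl9 (0.244), Trpa1 (0.253) and Arhgef25 (0.282). Myl9 encodes the regulatory light chain of smooth muscle myosin, and had 1634, 1160 and 672 normalized counts in Col6a1+ and 186, 314 and 54 in Col6a1- CAFs. Arhgef25 had 283, 209 and 178 against 34, 91 and 24. Trpa1, an ion channel gene, had 74, 65 and 35 against 9, 14 and 3. In these 3 genes, as in Thbs3, replicate 1 was the highest Col6a1+ library and replicate 3 the lowest Col6a1- library. They were picked for their likeness to Thbs3 over these libraries, so the shared order follows from the choice.

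Thbs4 (ENSMUSG00000021702, mm10 chr13:92751590-92794818, minus strand) encodes a pentameric member of muscle, tendon and the vessel wall. It had 73, 24 and 7 normalized counts in Col6a1+ CAFs and 98, 116 and 43 in Col6a1- CAFs. Col6a1+ CAF replicate 1 lay above Col6a1- CAF replicate 3, so the groups overlapped. Within pairs of the same replicate number, however, the log2 difference was -0.42, -2.23 and -2.46, lower in 3 of 3 pairs. The means were 34.7 ± 34.3 and 85.7 ± 38.0 (SD, n = 3 each), and the log2 fold change was -1.70 (SE 0.78, 95% interval -3.43 to 0.02), with an adjusted p of 0.319 (limma). Over the alternatives the adjusted p was 0.0533 to 0.905, so that Thbs4 was called in none of them.

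By the same measure, the closest pattern to Thbs4 over the 6 libraries was that of Muc1 (root-mean-square difference 0.159), a membrane mucin gene of epithelia, with 89, 22 and 8 normalized counts in Col6a1+ and 122, 113 and 45 in Col6a1- CAFs. The next were Kcnn4 (0.314), a potassium channel gene, and St3gal6 (0.363), a sialyltransferase gene. Epcam itself had 1074, 884 and 615 normalized counts in Col6a1+ CAFs and 3107, 4129 and 3730 in Col6a1- CAFs, so it was present in every library and called lower (log2 fold change -2.12). The part of epithelial RNA in the Thbs4 values was not tested. Muc1 also happens to be the gene next to Thbs3, the member called higher, and starts 2219 bases beyond its end.

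Comp (ENSMUSG00000031849, mm10 chr8:70373558-70382066, plus strand) encodes cartilage oligomeric matrix protein, the pentameric member of cartilage and tendon. It was at 0 in all 3 Col6a1+ CAF libraries and in Col6a1- CAF replicates 1 and 2, and had 3 normalized counts in Col6a1- CAF replicate 3. A count of 0 was taken to allow up to 3 normalized counts, so both groups were at or under that limit and no fold change is given. Of 10 tendon and cartilage markers, 1 was called higher (Acan) and 1 lower (Col2a1) in Col6a1+ CAFs, where 2.66% and 1.96% of all genes tested were called, and their median log2 fold change was 0.02.

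The promoter sequences are shown for Thbs3, the member called higher, and for Thbs4. The latter had the lowest log2 fold change of Thbs1 to Thbs4 but was not called. The sequences are given to compare their proximal elements. They run from 250 bases before to 50 bases after the gene's start, 5′ to 3′ on the gene's strand, and come from RefSeq (GRCm38.p6). Capitals mark matches on either strand to 5 motifs. The TATA box was searched as TATAA. The box bound by the factor NF-Y was searched as CCAAT. The GC box of Sp factors was searched as GGGCGG. The core bound by the Notch effector RBPJ was searched as TGGGAA, and the CArG box of serum response factor by its consensus. No base belonged to more than 1 match.
Thbs3 (chr3:89214930-89215229, plus strand): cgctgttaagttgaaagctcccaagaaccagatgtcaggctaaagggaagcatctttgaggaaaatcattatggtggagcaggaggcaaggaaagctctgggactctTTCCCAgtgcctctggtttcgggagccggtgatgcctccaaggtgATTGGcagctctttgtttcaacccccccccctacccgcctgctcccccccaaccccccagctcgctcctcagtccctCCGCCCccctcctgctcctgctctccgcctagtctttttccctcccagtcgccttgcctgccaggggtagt
Thbs4 (chr13:92794769-92795068, minus strand): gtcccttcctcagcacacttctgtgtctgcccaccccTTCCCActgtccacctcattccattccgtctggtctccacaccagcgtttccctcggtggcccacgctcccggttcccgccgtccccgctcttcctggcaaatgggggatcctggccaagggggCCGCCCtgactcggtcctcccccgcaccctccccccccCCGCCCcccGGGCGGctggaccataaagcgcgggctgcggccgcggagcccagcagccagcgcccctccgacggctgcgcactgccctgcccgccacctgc

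The Thbs3 promoter held 1 CCAAT box, 1 GC box and 1 RBPJ core, and the Thbs4 promoter 3 GC boxes and 1 RBPJ core. The Thbs2 promoter held 1 TATA box and 2 CCAAT boxes. No CArG box was found in these 3 windows. Among 32851 promoters of the same length, 24.9% held a TATA box, 37.4% a CCAAT box, 35.7% a GC box, 25.6% an RBPJ core and 1.63% a CArG box. The GC content was 48.3% for Thbs2, 59.0% for Thbs3 and 72.0% for Thbs4, against a median of 52.7% over all promoters. Thbs1 and Comp had no entry in the table used. These matches are letters in a window, and no binding was measured.

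Levels of different members were compared by normalized counts and per kilobase. By counts the means in Col6a1+ CAFs were 366 for Thbs3, 309 for Thbs1, 73.7 for Thbs2 and 34.7 for Thbs4. The SD ranges of Thbs3 (± 120) and Thbs1 (± 46.4) overlapped. In Col6a1- CAFs the means were 276 for Thbs1, 85.7 for Thbs4, 79.3 for Thbs2 and 67.3 for Thbs3. The SD ranges of Thbs4, Thbs2 and Thbs3 overlapped. Per kilobase the order depended on the length used. The authors' values per base imply gene lengths of 4612 bases for Thbs1, 3267 for Thbs2, 8996 for Thbs3 and 2669 for Thbs4, while the longest coding transcripts in GENCODE M21 are 5848, 5895, 3190 and 3198 bases long. By the authors' lengths Thbs1 led in Col6a1+ CAFs with 66.9 ± 10.1 normalized counts per kilobase, ahead of Thbs3 with 40.7 ± 13.4, Thbs2 with 22.6 ± 7.88 and Thbs4 with 13.0 ± 12.8 (SD, n = 3). By the transcript lengths Thbs3 led with 115 ± 37.7 per kilobase, ahead of Thbs1 with 52.8 ± 7.93, Thbs2 with 12.5 ± 4.37 and Thbs4 with 10.8 ± 10.7. The order of Thbs1 and Thbs3 in Col6a1+ CAFs therefore turned with the length, and the SD ranges of Thbs2 and Thbs4 overlapped by either length.

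Per kilobase, the mean of Thbs1 in Col6a1- CAFs was the highest by both lengths, but this lead over Thbs4 rested on replicate 3. By normalized counts, without a length, Thbs1 exceeded Thbs4 in every Col6a1- library (log2 ratios 0.89, 0.90 and 3.29). By the authors' lengths Thbs1 had 39.5, 47.3 and 92.8 normalized counts per kilobase in the 3 libraries and Thbs4 had 36.7, 43.5 and 16.1, so they were close in replicates 1 and 2. Over the 3 libraries, by the authors' lengths the order was Thbs1 (59.8 ± 28.8 per kilobase), Thbs4 (32.1 ± 14.3), Thbs2 (24.3 ± 4.54) and Thbs3 (7.49 ± 5.74). By the transcript lengths it was Thbs1 (47.2 ± 22.7), Thbs4 (26.8 ± 11.9), Thbs3 (21.1 ± 16.2) and Thbs2 (13.5 ± 2.52). Per kilobase, the SD ranges of Thbs1 and Thbs4 overlapped by either length, as did those of Thbs4 and Thbs2 by the authors' lengths. By the transcript lengths, Thbs4, Thbs3 and Thbs2 each overlapped with the next in order. These ranges leave out that the members were measured in the same libraries. Since 3′ sequencing yields a read per transcript end rather than per stretch of transcript, a level per kilobase understates long transcripts here. The order by normalized counts needs no length.

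Ratios between members within a library do not depend on the scaling between libraries. The log2 ratio of Thbs3 to Thbs4 was 2.76, 3.71 and 5.08 in Col6a1+ CAFs and -0.82, 0.10 and -0.87 in Col6a1- CAFs. All 3 Col6a1+ libraries thus held far more Thbs3 than Thbs4, whereas Thbs4 exceeded Thbs3 in Col6a1- replicates 1 and 3 and the counts were close in replicate 2. The difference of 4.39 had a p of 0.1 in a two-sided exact permutation test, the smallest that 3 against 3 libraries can give, and 0.2 after Benjamini-Hochberg adjustment over the 10 pairs of members.

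The ratios of Thbs1 and Thbs2 to Thbs3 did not overlap between the groups either, but they are not a separate result. Thbs1 and Thbs2 had log2 fold changes of 0.25 and -0.16, so these ratios mostly restate the Thbs3 difference. The log2 ratio of Thbs1 to Thbs3 was -0.95, 0.09 and 0.24 in Col6a1+ CAFs and 1.71, 0.81 and 4.16 in Col6a1- CAFs. The difference was -2.43 (exact permutation p = 0.1, Benjamini-Hochberg adjusted 0.2). That of Thbs2 to Thbs3 was -3.48, -1.85 and -1.62 against 0.19, -0.57 and 1.95. The difference was -2.84 (exact permutation p = 0.1, Benjamini-Hochberg adjusted 0.2). Between the trimeric members, the log2 ratio of Thbs1 to Thbs2 was 2.11 ± 0.36 in Col6a1+ and 1.70 ± 0.44 in Col6a1- CAFs (n = 3 each, SD), a difference of 0.41 with an exact p of 0.3. The family as a whole summed to 876, 790 and 683 normalized counts in Col6a1+ CAFs and 398, 541 and 589 in Col6a1- CAFs. Without Thbs3 the sums were 375, 463 and 413 against 343, 417 and 566 and overlapped.

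**Figure D3:**
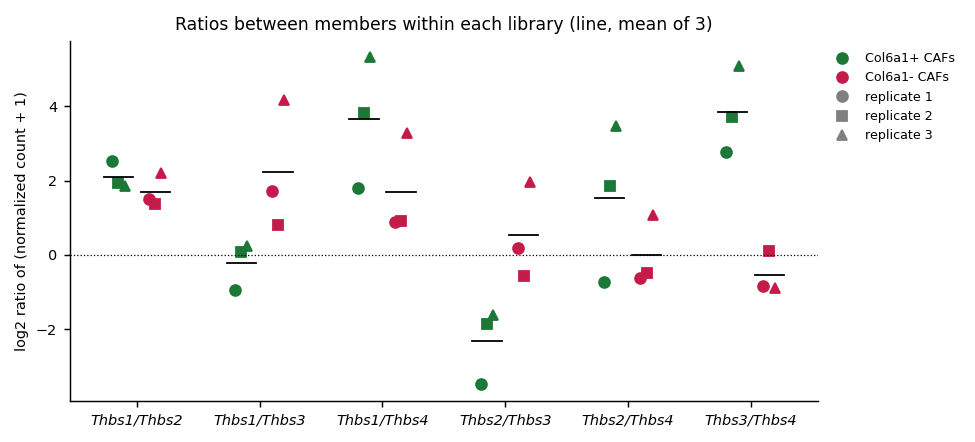
Log2 ratio of the normalized counts plus 1 (y axis) of each pair of Thbs1 to Thbs4 (x axis) within each library of Col6a1+ (green) and Col6a1- CAFs (red), with shapes for the replicate number and lines for the mean of 3 libraries. The groups are apart in the 3 pairs that hold Thbs3, with means of 3.85 and -0.53 for Thbs3/Thbs4, and overlap in the other 3. The 3 pairs that are apart share the same Thbs3 values.

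Receptors decide which cells can respond to thrombospondins. Of 27 receptors and receptor subunits, 7 were called higher in Col6a1+ CAFs, 1 was called lower and 19 were not called. Their median log2 fold change was 0.29, against -0.27 over all genes tested. Over all genes tested, 2.66% were called higher and 1.96% lower. Of the 27, 10 lay wholly above and 4 wholly below between the groups, where 7.91% and 11.6% of all genes tested did, and 14.2% and 17.6% of those averaging at least 10. The count below is thus near the background. Integrin subunits made up most of the calls, whereas the classic receptors of Thbs1 were not called. With the replicate block no receptor was called, as no gene of the table was (4418 had an unadjusted p under 0.05), and with the block over genes averaging at least 10 normalized counts 8 were higher and 1 lower (limma).

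The classic receptors were present in both populations or low in both. Cd47, the receptor for the C-terminal domain of Thbs1, had 411, 555 and 518 normalized counts in Col6a1+ and 381, 317 and 537 in Col6a1- CAFs (log2 fold change 0.29). Cd36, the receptor for type 1 repeats, had 24, 1 and 15 against 0, 2 and 1. The values of Cd36 overlapped at 1 and 2 normalized counts, so its log2 fold change of 2.35 (adjusted p = 0.356, limma) rests on 2 of the 3 Col6a1+ libraries. Lrp1 and Calr, which encode the pair of proteins through which Thbs1 loosens focal adhesions, had log2 fold changes of 0.71 and 0.01 and overlapped.

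Integrin genes differed in both directions. Itgb3, the beta subunit that with alpha v binds the RGD sequence of Thbs1, had 1256, 300 and 2608 normalized counts in Col6a1+ CAFs and 142, 111 and 84 in Col6a1- CAFs. Its lowest Col6a1+ library still lay above all Col6a1- libraries (log2 fold change 3.17, adjusted p = 0.0201, limma). Itgav, its alpha partner, had 118, 260 and 409 against 76, 169 and 239 and overlapped. Itgb5 (2.68), Itgb1 (1.88) and Itga4 (4.24), a subunit that with beta 1 binds the N-terminal domain of thrombospondins, were called higher. Itga6, a laminin receptor subunit that also binds that domain, had 185, 247 and 209 normalized counts in Col6a1+ and 550, 711 and 981 in Col6a1- CAFs. It was called lower (log2 fold change -1.77, adjusted p = 0.0109, limma), and epithelial cells, whose markers were higher in the same libraries, make it too. The part of epithelial RNA in its value was not tested.

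Members of the Notch pathway and a calcium channel subunit were the remaining calls. Notch3, a Notch receptor of mural cells whose signaling Thbs2 enhances, had 4826, 3159 and 5036 normalized counts in Col6a1+ and 141, 75 and 43 in Col6a1- CAFs. It had the highest log2 fold change among the 27 (5.77, adjusted p = 0.000197, limma), and is itself among the mural markers. Its ligand gene Jag1 had 1121, 447 and 478 against 69, 63 and 58 (log2 fold change 3.28). Cacna2d1, the calcium channel subunit through which thrombospondins promote synapses in the brain, had 358, 214 and 298 against 19, 34 and 29 (log2 fold change 3.37). In each of these genes the groups were far apart.

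**Figure D4:**
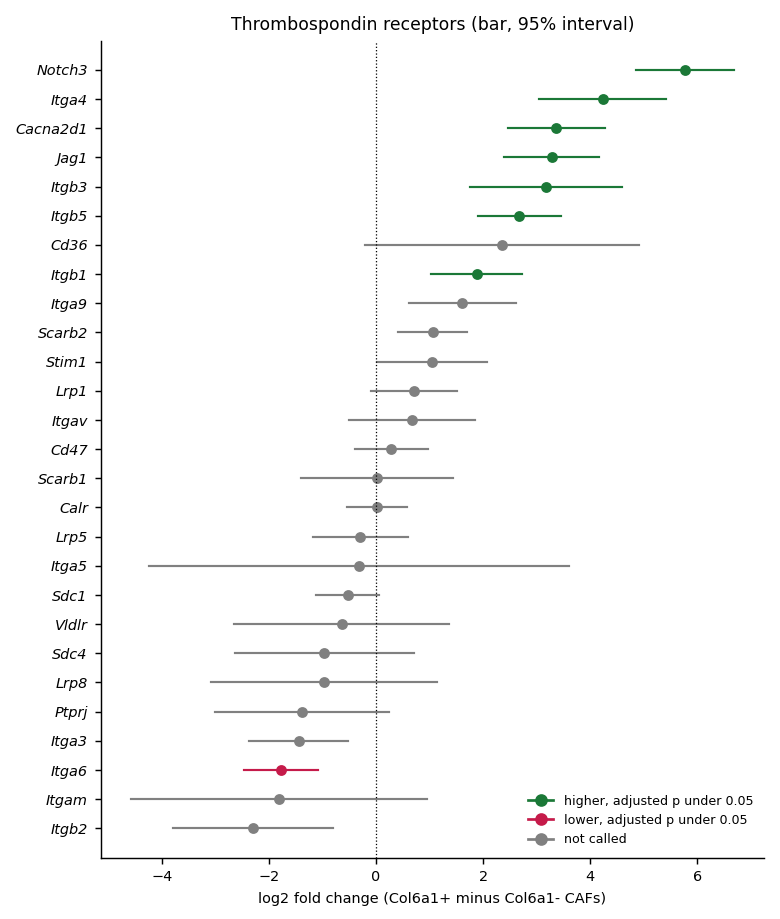
Log2 fold change of Col6a1+ over Col6a1- CAFs (x axis) with its 95% interval for 27 thrombospondin receptors and receptor subunits (rows, sorted), green where called higher, red where called lower and gray where not called (limma, adjusted p under 0.05). Notch3 is at the top with 5.77, and Itga6 is the only red row with -1.77.

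Partners in the matrix were the other side of the pathway. Of 38 matrix and growth factor partners, 35 had a count, 12 were called higher in Col6a1+ CAFs, 1 was called lower and 22 were not called. Their median log2 fold change was 1.36. Over all genes tested, 2.66% were called higher and 1.96% lower. Of the 35, 20 lay wholly above and 3 wholly below between the groups. This held for 7.91% and 11.6% of all genes tested, and for 14.2% and 17.6% of those averaging at least 10. The count below is no more than either background. The partners called higher held the TGF-beta genes 2 and 3, fibrillar collagens and the protease gene Adamts1. Of the 38, 6 stood in another list as well, among them 3 collagens of the pan-fibroblast markers. The block called none of them, and the block over genes averaging at least 10 normalized counts called 13 higher and 1 lower (limma).

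Of the growth factors that thrombospondins release or bind, Tgfb2 and Tgfb3 were called higher. Tgfb2 had 1643, 1207 and 1366 normalized counts in Col6a1+ and 96, 130 and 135 in Col6a1- CAFs (log2 fold change 3.54, adjusted p = 0.000356, limma). Tgfb3 had 358, 77 and 145 against 23, 21 and 10 (log2 fold change 3.15, adjusted p = 0.0174, limma). Tgfb1, the form whose activation by Thbs1 is best known, had 43, 29 and 27 against 12, 18 and 5, without overlap but not called (adjusted p = 0.331, limma). Ltbp1, which holds latent TGF-beta in the matrix, was called higher (2.06). Vegfa, the angiogenic factor that Thbs1 binds, had a log2 fold change of 0.46 and was not called.

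Proteases and structural proteins followed. Adamts1, which cleaves Thbs1 and Thbs2, had 1227, 1221 and 1226 normalized counts in Col6a1+ and 154, 155 and 141 in Col6a1- CAFs. The 3 libraries of each group lay close together (log2 fold change 3.02, adjusted p = 0.000494, limma). Mmp9 (2.57) was called higher, while Mmp2 (1.39) was not. The collagen genes Col1a1 (2.21), Col1a2 (2.50), Col3a1 (1.81) and Col5a1 (2.28), the fibrillin gene Fbn1 (2.30) and the fibronectin gene Fn1 (1.31) were called higher.

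The cartilage partners of Comp and Thbs4 went different ways. Acan, which encodes the proteoglycan aggrecan, had 11, 16 and 15 normalized counts in Col6a1+ CAFs and was at 0 in the 3 Col6a1- libraries. Its Col6a1+ mean was 4.67-fold a floor of 3 normalized counts, set for libraries at 0. Col9a2, a chain of the fibril-associated collagen IX, had 0, 3 and 3 in Col6a1+ CAFs and 31, 31 and 45 in Col6a1- CAFs and was the partner called lower (adjusted p = 0.0454, limma). Its sister chain Col9a3 had 0, 6 and 0 against 42, 21 and 15 and was not called. Col2a1, the cartilage collagen gene, had 0 in all Col6a1+ libraries and 9, 14 and 18 in Col6a1- libraries. Matn1 was at 0 in all 6 libraries.

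**Figure D5:**
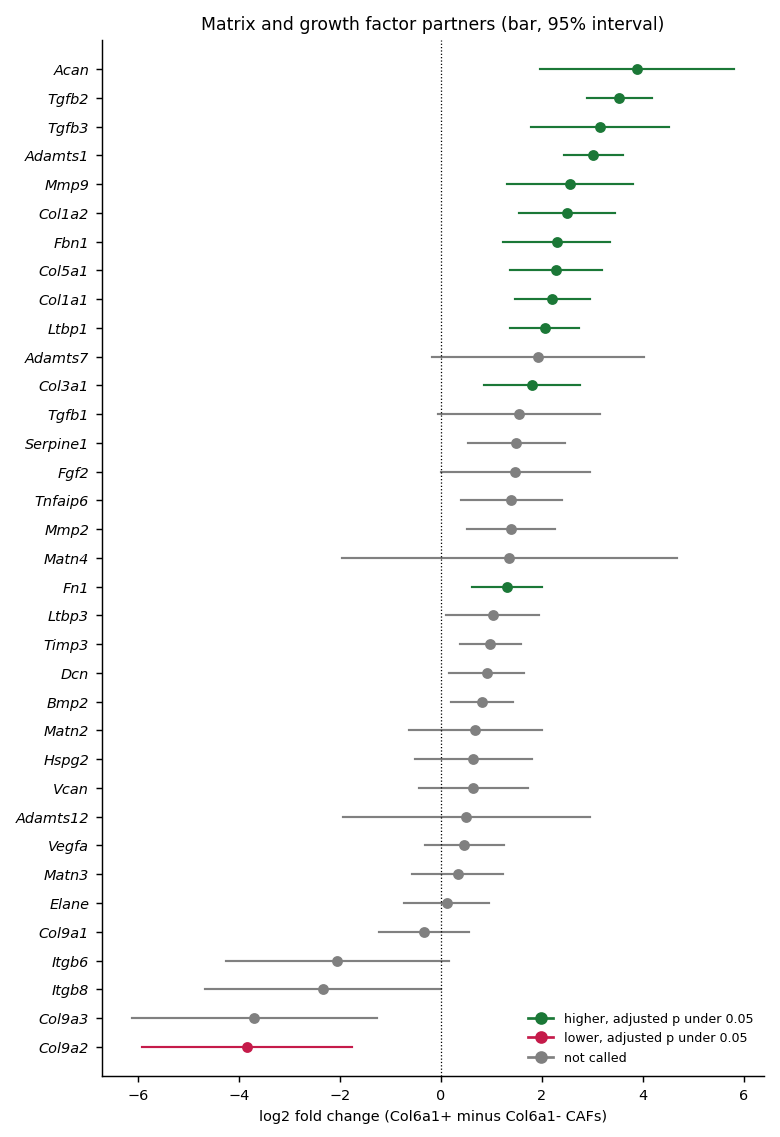
Log2 fold change of Col6a1+ over Col6a1- CAFs (x axis) with its 95% interval for the 35 matrix and growth factor partners with a count (rows, sorted), green where called higher, red where called lower and gray where not called (limma, adjusted p under 0.05). The green rows run from 1.31 (Fn1) to 3.89 (Acan), and Col9a2 is the red row. The value of Acan is fitted against libraries at 0 and depends on the pseudocount.

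The trimeric members had their closest patterns among broadly expressed genes. Both varied little between libraries, by a root mean square of 0.415 (Thbs1) and 0.376 (Thbs2) around their own mean log2 value. For Thbs3 and Thbs4 it was 1.53 and 1.33. A close pattern here is thus mainly that of another gene that varied little. For Thbs1 they were Psen2 (root-mean-square difference 0.0795), Rabl3 (0.122) and Smg1 (0.130), which encode a presenilin, a small GTPase and a kinase of RNA surveillance. For Thbs2 they were Set (0.0495), Nudc (0.0531) and Fem1b (0.0658). None of these 6 genes was called between the groups. Set had 267, 519 and 515 normalized counts in Col6a1+ and 344, 494 and 520 in Col6a1- CAFs. Its low first replicate, as in Thbs2, follows from its choice by likeness.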

How the data were processed

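According to the labels and the study's methods, the authors mapped the 3′ mRNA libraries (QuantSeq, Ion Proton) to mm10 with TopHat2 and Bowtie2, counted them per gene and normalized them with DESeq. The authors deposited the log2 of the normalized count plus 1 per gene and library, and a signal column of normalized counts per base of gene model. Whether counting used strand is not given in the sources used here. Their columns of p-values, fold changes and group means were not used. Sums of normalized counts were 3039152 to 3425249 per library. They carry the authors' scaling, and the depth in reads is not given, so intervals cover the spread between libraries only.

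The log2 values, raised back and less 1, gave normalized counts. With limma 3.58.1 in R 4.3.3 a 2-group linear model (eBayes with trend) was fitted to 26402 genes with at least 1 normalized count summed over the libraries. Adjustment followed Benjamini and Hochberg, and genes were called under 0.05. Fold changes are on the log2 scale with a pseudocount of 1, which understates those of low genes. The code was tested on simulated data. Ratios were compared with SciPy 1.17.1, and plots were drawn with Matplotlib 3.10.9. A fold change against libraries at 0 was computed from the group mean against 3 normalized counts. The number of reads behind 3 normalized counts is not known, so it is not a strict bound.

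The genes named are the members, called receptors and partners and those given as background, the 3 genes most alike to each member with a mean of at least 10, genes that overlap a member, Col6a1, and up to 4 called genes of other lists by size. Pf4, Ppbp, Itga2b, Gp1bb, Epcam and genes not called in other lists were named after their values were seen, as were the promoter motifs. The members and lists were chosen with earlier results of these data known. Labels gave groups and replicate numbers. Each sample is a pool, so p-values measure the spread between pools. Deviations from the group means correlated at 0.245, 0.125 and 0.144 between libraries of the same number over 13515 genes. The libraries numbered 2 (Col6a1+) and 3 (Col6a1-) correlated at 0.15, so these values do not settle whether the numbers mark pairs. The fit reported had no block, and differences within a number are given as a description. Alternatives were other scalings, filters and tests, a pseudocount of 0.1, the replicate block and leaving out each library.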

Additional observations from a re-analysis of the deposited data

How the results depend on the processing

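Under 16 other settings Thbs3 kept its direction, with a log2 fold change of 2.43 to 2.74 where it was also called (8 settings). It was 2.68 but not called with no filter on low values (adjusted p 0.250, limma) and with the replicate block (0.104), and 2.08 to 3.27 and not called when 1 library was left out. The replicate block called 0 genes of the table at an adjusted p, with 4418 at an unadjusted p under 0.05, where limma with the block over genes with a mean of at least 10 called 1852. The genes called over the table were 1220 as reported, 28 with no filter, 2000 with array quality weights and 0 to 264 when 1 library was left out. The pairing changed no call of a member other than Thbs3.

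Thbs2 turned to 0.054 with array quality weights, and lay between -0.33 and 0.17 when 1 library was left out. The ranges on leaving out 1 library were 0.0035 to 0.62 for Thbs1 and -2.50 to -0.89 for Thbs4. Thbs4 was dropped where every library needed 10 normalized counts. Receptors called higher numbered 7 as reported, 0 with no filter, 0 with the replicate block and 0 to 2 when 1 library was left out, and those called lower numbered 1, 0, 0 and 0. Receptors called lower were 2 with limma-voom, with array quality weights and where every library needed 10 normalized counts. Partners called higher were 12 as reported, 2 with no filter, 0 with the block and 0 to 2 without 1 library. Partners called lower were 1 as reported, 2 with limma-voom, and 0 with no filter, with a pseudocount of 0.1, with 10 in every library, with the block and without 1 library. Quantile normalization moved the median log2 fold change over all genes from -0.27 to -0.11. The cause of the changes was not tested. The ratios kept their direction in all 9 settings run for the pairs of Thbs1 to Thbs4.

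Groups of 3 libraries with unknown read depth limit the precision. Each sample pools mice, each group mixes cell types, and the counts come from the 3′ end, so transcript forms and protein were not measured.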

Other observations

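Of 18 other matricellular genes in the table, 6 were called higher in Col6a1+ CAFs and 1 lower, with a median log2 fold change of 0.98. Over all genes tested, 2.66% were called higher and 1.96% lower. Sparcl1, which encodes an adhesion-modulating relative of osteonectin, had 2183, 1491 and 1608 normalized counts in Col6a1+ and 122, 130 and 43 in Col6a1- CAFs (log2 fold change 4.28, adjusted p = 0.000862, limma). Postn (3.35) and Sparc (2.76), genes of collagen-rich stroma, were also called higher. Smoc2, a calcium-binding matrix gene and the nearest gene to Thbs2 toward lower coordinates at 260709 bases, had 83, 60 and 49 against 1281, 409 and 840. It was called lower (-3.58, adjusted p = 0.00191, limma), while Thbs2 overlapped.

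Type 1 repeats, the domain that sets Thbs1 and Thbs2 apart from the pentameric members, occur in other proteins as well. Of 24 such genes, 23 had a count, 6 were called higher in Col6a1+ CAFs and none lower, with a median log2 fold change of 0.83. Sema5b, a semaphorin gene, had 71, 28 and 20 normalized counts in Col6a1+ CAFs and was at 0 in the 3 Col6a1- libraries. Its Col6a1+ mean was 13.2-fold the floor of 3 normalized counts. Adamtsl1 (3.65) and Sema5a (2.84) were also called higher. Of 15 endoplasmic reticulum chaperones and stress factors tied to the folding of pentameric thrombospondins, 2 were called higher, the collagen chaperones Fkbp10 (2.22) and Serpinh1 (1.60), and none lower. Beside the counts of both lists, 2.66% of all genes tested were called higher and 1.96% lower. Atf6, the stress sensor that Thbs4 binds, had 176, 141 and 101 against 110, 101 and 130 and overlapped.

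Markers of further cell types were measured beside the members. Over all genes tested, 2.66% were called higher and 1.96% lower in Col6a1+ CAFs. Immune markers summed to 17 to 38 normalized counts in Col6a1+ and 57 to 119 in Col6a1- CAFs, and endothelial markers to 72 to 171 against 133 to 318, with none called in either list. Erythroid markers summed to 110 to 1713 against 281 to 482, with none called, and glial markers to 236 to 748 against 48 to 154, with 1 called higher. Trophocyte markers, of CD81+ fibroblasts, summed to 430 to 1365 against 1510 to 2102, with 2 of 7 called lower. PDGFRA-high fibroblast markers summed to 3725 to 6072 against 1325 to 1517, with 5 of 8 called higher.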
